A study of Mus musculus with 2 samples.

Results

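The genes described here are 10 core cell cycle regulators of the mouse: the cyclin genes Ccnd1, Ccnd2, Ccnd3, Ccne1, Ccne2, Ccna2 and Ccnb1 and the cyclin-dependent kinase (CDK) genes Cdk1, Cdk4 and Cdk6. They were taken by symbol from both deposited expression tables, where each of the 10 had exactly 1 record among 55487 records with a gene symbol. The cells were LPC-HRas, an established mouse liver tumour line whose name carries HRas. Both groups were infected with lentivirus: the control carried shRFP, a hairpin labelled as against RFP, and the knockdown carried shETV4, a hairpin against the ETS transcription factor ETV4. There was 1 RNA-seq library per group and no label of time, dose or clone. The value columns are named shRFP_2 and shETV4_2, and whether the suffix marks a further run or replicate is unknown here. Every value below is that of a single library, and no difference has a replicate check, a standard error or a p-value.

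Cyclins are the regulatory partners that switch on CDKs, and the pairs follow each other through the cell cycle. D-type cyclins bind CDK4 and CDK6 in G1 and couple growth factor and RAS signalling to phosphorylation of the retinoblastoma protein. E-type cyclins with CDK2 carry cells into S phase, cyclin A2 serves S phase and G2, and cyclin B1 with CDK1 drives mitosis. In liver, cyclin D1 is known as a marker of hepatocytes that leave quiescence, and the D-type cyclins can in part replace each other.

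Values are TPM, transcript abundances scaled to transcript length and to each library's sum, so that levels of different genes can be set side by side within a library. TPM keeps no read depth, so the depth of the libraries and the counting error of a value are unknown. A difference is log2(TPM + 1) with shETV4 minus log2(TPM + 1) with shRFP, which understates the difference of low genes, while a fold is the plain ratio of the TPM values. A gene counted as measured when either library reached 1 TPM, and as called at a difference of 1 or more in either direction (2-fold). All 10 cyclin and CDK genes were measured. The targeted gene Etv4 was at 73.2 TPM in the control and 16.2 TPM in the knockdown, or 4.52-fold lower. Of 6 hepatocyte markers none reached 1 TPM, and Alb, Tat and Cyp2e1 were listed at 0 in both libraries, although the label calls the line hepatocellular carcinoma. Of 6 biliary and progenitor markers, 3 were measured, Spp1 (423 and 476 TPM), Sox9 (28.0 and 45.4 TPM) and Krt19. Leukocyte markers summed to 1.07 and 2.12 TPM, endothelial markers to 0.5 and 0.88 TPM, and the fibroblast and stellate list to 267 and 317 TPM. Of the 5 genes of that last list 3 were measured, Col1a1 (200 and 229 TPM), Pdgfrb (59.5 and 77.2 TPM) and Dcn (6.81 and 9.76 TPM). Des was at 0.02 and 0.64 TPM and Lrat was listed at 0 in both libraries. The differences followed transcript base composition across the library, with a rank correlation of 0.52 with GC content over 12947 measured genes, so each difference of the 10 genes is also given after subtraction of the running median over GC content ("after GC adjustment").

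One cyclin was called higher in the shETV4 library and 1 lower, and the other 8 genes lay within 2-fold. Ccnd3 was the higher one (136 and 304 TPM with shRFP and shETV4) and Ccne2 the lower one (11.5 and 4.32 TPM). Over all 12968 measured genes 3.39% were called higher and 7.06% lower, so 1 of 10 in either direction amounts to a single gene each way and is not a result about the group. The median difference of the 10 genes was -0.14, beside -0.10 for all measured genes. The kinases stood at nearly the same level in both libraries, whereas the cyclins ranged from -1.23 to 1.16. After GC adjustment neither Ccnd3 (0.98) nor Ccne2 (-0.56) was past 2-fold; by that rule 4.0% of genes were called higher and 2.32% lower. With the trimmed mean of log ratios between the libraries set to 0, Ccnd3 and Ccne2 were again the genes called, beside 4.19% of all genes called higher and 5.03% lower. At a threshold of 1.5-fold Ccnb1 joined Ccne2 on the lower side, beside 8.61% of all genes called higher and 20.0% called lower.

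**Figure D1:**
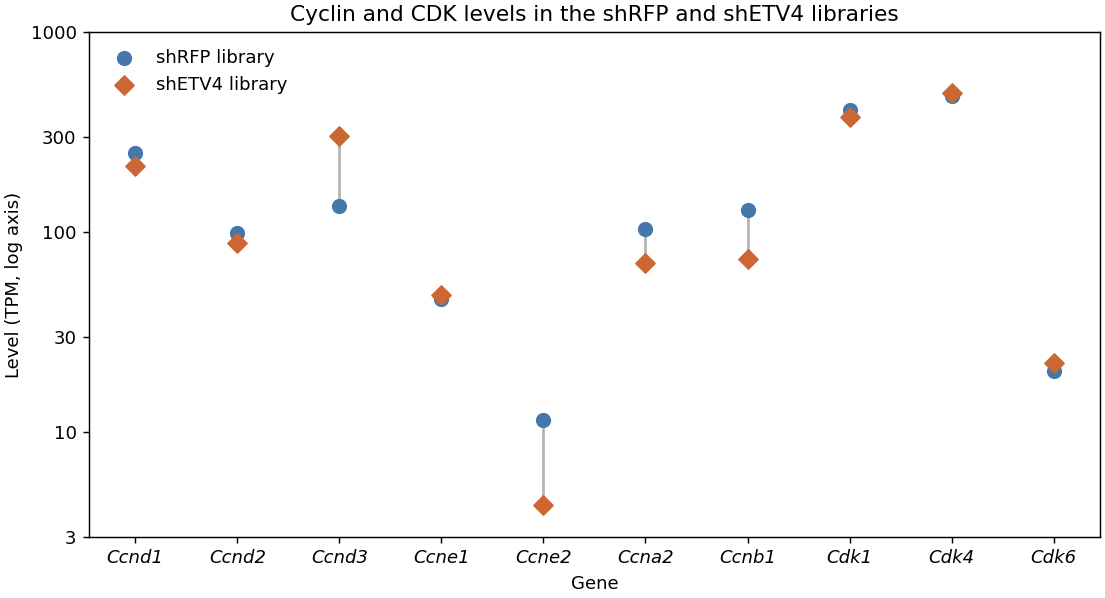
Level of each cyclin and CDK gene in TPM on a log axis, with 1 circle for the shRFP library and 1 diamond for the shETV4 library, joined by a line; there are no error bars because each group is 1 library. Ccnd3 moves from 136 to 304 TPM and Ccne2 from 11.5 to 4.32 TPM, while the symbols of Cdk1, Cdk4, Cdk6 and Ccne1 nearly coincide.

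Within each library the levels spanned a wide range. Cdk4 was the highest of the 10 in both, at 478 TPM in the control and 494 TPM in the knockdown, and Ccne2 was the lowest in both. With shRFP the order from the top was Cdk4, Cdk1, Ccnd1, Ccnd3, Ccnb1, Ccna2, Ccnd2, Ccne1, Cdk6 and Ccne2. With shETV4 Ccnd3 passed Ccnd1 to stand next after Cdk1, and Ccnd2 stood above Ccnb1 and Ccna2. With 1 library per group it cannot be said which neighbours in these orders differ beyond their spread. The 10 genes together held 0.168% of all TPM with shRFP and 0.17% with shETV4.

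The D-type cyclins, the G1 partners of CDK4 and CDK6, parted from each other. Ccnd3 (ENSMUSG00000034165, chromosome 17, 47505051 to 47599691, plus strand of GRCm38) was 2.24-fold higher with shETV4, a difference of 1.16 that lay at percentile 97.4 of all measured genes. The 2 windows that RefSeq places at its annotated starts are shown here because Ccnd3 is the one gene of the 10 called higher; the values are per gene and do not tell transcripts from the 2 starts apart. Each window runs from 250 bases before to 50 bases after a start on GRCm38.p6, and capitals mark the letters AGGAAG or CGGAAG, both forms of the ETS core that ETV4 and its relatives recognise, and the letters CCAAT, on either strand.
Ccnd3 upstream start, chr17:47504801-47505100, plus strand: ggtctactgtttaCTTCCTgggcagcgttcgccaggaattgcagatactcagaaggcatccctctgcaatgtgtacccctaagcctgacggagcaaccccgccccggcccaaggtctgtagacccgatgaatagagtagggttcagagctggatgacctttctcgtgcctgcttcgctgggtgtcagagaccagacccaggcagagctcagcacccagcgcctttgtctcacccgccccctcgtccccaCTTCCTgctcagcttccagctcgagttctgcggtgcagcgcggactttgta
Ccnd3 downstream start, chr17:47593217-47593516, plus strand: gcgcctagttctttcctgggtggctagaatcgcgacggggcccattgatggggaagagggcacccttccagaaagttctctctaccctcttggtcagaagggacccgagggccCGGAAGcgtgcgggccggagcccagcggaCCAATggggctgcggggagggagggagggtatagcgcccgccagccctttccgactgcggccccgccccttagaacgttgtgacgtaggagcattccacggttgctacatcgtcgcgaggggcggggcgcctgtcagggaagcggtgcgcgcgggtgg
The upstream window holds the ETS letters at -237 and -1 from the start and the downstream window at -137, with CCAAT at -108. Of 32851 windows of this length, 46.5% hold the ETS letters, so their presence in a window is common, and Ccnd3 has 2 windows. Cdk6, 1.09-fold higher, also held the ETS letters in its window, at -187, while the windows of Ccne1, Ccnb1, Cdk1 and Cdk4 did not. These are matches of letters and not measured binding sites, and their relation to the differences was not tested.

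Ccnd1 (ENSMUSG00000070348, chromosome 7, 144929931 to 144939925, minus strand), the D-type cyclin most often used as a readout of RAS signalling, was at 250 TPM in the control and 214 TPM in the knockdown. Ccnd2 (ENSMUSG00000000184, chromosome 6, 127125162 to 127152193, minus strand) was at 99.0 and 88.8 TPM. These values were 1.17-fold and 1.11-fold lower with shETV4, well inside 2-fold, and the differences of -0.22 and -0.15 were at percentiles 40.8 and 46.0 of all measured genes. With the trimmed mean of log ratios between the libraries, which lay at -0.13, set to 0, they came to -0.09 and -0.03. GC adjustment moved them the other way, to -0.33 for Ccnd1 (percentile 19.0 of the adjusted differences) and -0.21 for Ccnd2 (percentile 28.2).

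The make-up of the D-type pool therefore differed between the libraries, and a share within a library does not depend on how the library totals were scaled. Ccnd1 held 51.6% of the summed D-type cyclin TPM with shRFP and 35.3% with shETV4. Ccnd3 went the other way, with 28.0% and 50.1%, and Ccnd2 held 20.4% and 14.6%. Ccnd1 was thus the leading D-type transcript in the control library and Ccnd3 in the knockdown library, the quotient of Ccnd1 to Ccnd3 being 1.84 and 0.704. With the GC trend divided out of the shETV4 values, the share of Ccnd3 there was 48.7% and that of Ccnd1 35.9%. The summed D-type level was 484 TPM in the control and 607 TPM in the knockdown, or 1.25 times as high, and this excess came from Ccnd3 alone, since Ccnd1 and Ccnd2 were both lower.

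**Figure D2:**
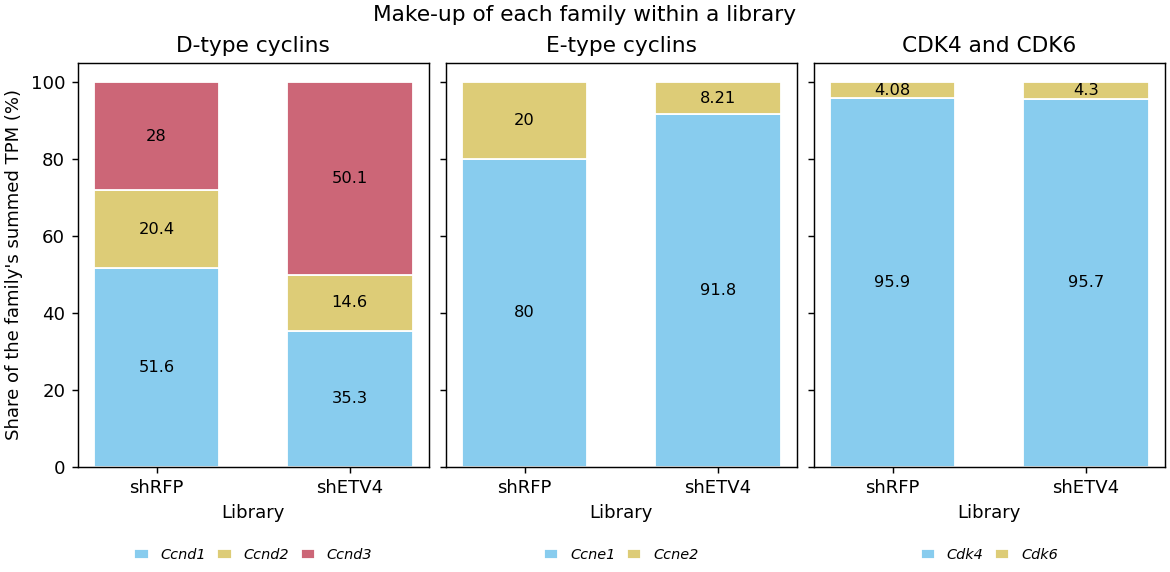
Share of each gene in the summed TPM of its family, in percent, in the shRFP and the shETV4 library, for the D-type cyclins, the E-type cyclins and the CDK4/CDK6 pair. The numbers in the bars are the shares, without GC adjustment. Ccnd3 goes from 28.0% to 50.1% of the D-type sum and Ccne2 from 20.0% to 8.21% of the E-type sum, while Cdk4 holds 95.9% and 95.7% of its pair.

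The kinases that D-type cyclins activate showed no such shift. Cdk4 (ENSMUSG00000006728, chromosome 10, 127063534 to 127067920, plus strand) was at 478 and 494 TPM, 1.03-fold higher. Cdk6 (ENSMUSG00000040274, chromosome 5, 3341485 to 3531008, plus strand) was at 20.3 and 22.2 TPM, 1.09-fold higher. Cdk4 exceeded Cdk6 by a factor of 23.5 with shRFP and 22.3 with shETV4, so the CDK4 transcript made up nearly all of this pair in both libraries. The quotient of summed D-type cyclin to summed CDK4 and CDK6 transcript was 0.972 with shRFP and 1.18 with shETV4. After GC adjustment the differences of Cdk4 and Cdk6 were -0.06 and 0.00.

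Both E-type cyclins, which bind CDK2 at entry into S phase, were measured, and 1 of them differed between the libraries by more than 2-fold. Ccne1 (ENSMUSG00000002068, chromosome 7, 38097984 to 38107534, minus strand) was at 46.1 TPM in the control and 48.3 TPM in the knockdown, nearly level, with a difference of 0.07 (0.08 after GC adjustment). Ccne2 (ENSMUSG00000028212, chromosome 4, 11191351 to 11204779, plus strand) was 2.66-fold lower with shETV4, a difference of -1.23 at percentile 3.4 of all measured genes. Ccne2 transcripts have a GC content of 42.3%, where the running median itself lay at -0.67, and those of Ccne1 52.1%, where it lay at -0.01. The 2.66-fold rests on a low level, and with a pseudocount of 5 the difference was -0.82. Part of the Ccne2 locus, 17.4% of its exonic bases, lies in exons of Ints8, a subunit gene of the Integrator complex, which was at 20.8 and 9.79 TPM. Both overlapping genes were therefore lower with shETV4, and the division of reads in the shared bases is unknown here. Ccne1 held 80.0% of the E-type sum with shRFP and 91.8% with shETV4, and the sum itself was 57.6 and 52.6 TPM. These shares are without GC adjustment, although the running median was far lower at the GC content of Ccne2. The part of base composition in them was not tested. Against Cdk2, at 46.9 and 46.6 TPM, the summed E-type quotient was 1.23 and 1.13.

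The S phase and mitotic cyclins were lower with shETV4 but inside 2-fold. Ccnb1 (ENSMUSG00000041431, chromosome 13, 100778650 to 100786570, minus strand), the activator of CDK1 at mitosis, was at 129 TPM in the control and 73.3 TPM in the knockdown, 1.76-fold lower. Ccna2 (ENSMUSG00000027715, chromosome 3, 36564865 to 36572150, minus strand), which serves CDK2 and then CDK1, was at 104 and 70.0 TPM, 1.48-fold lower. Cdk1 (ENSMUSG00000019942, chromosome 10, 69335146 to 69352938, minus strand), the mitotic kinase, was nearly level at 409 and 376 TPM, 1.09-fold lower, a difference of -0.12 that came to 0.01 with the trimmed mean set to 0. Neither was called: Ccnb1 was at percentile 11.8 of all measured genes and Cdk1 at 48.5 (23.4 and 48.9 after GC adjustment). The quotient of Ccnb1 to Cdk1 was 0.315 with shRFP and 0.195 with shETV4. With the GC trend divided out the latter was 0.26, which is nearer the control value. After GC adjustment the differences were -0.27 for Ccnb1, -0.18 for Ccna2 and -0.01 for Cdk1. Ccnb2, the other mitotic B-type cyclin, was at 105 and 99.2 TPM, so the 2 B-type cyclins did not differ by like amounts. In bulk RNA, fewer cells in a phase of the cycle and less transcript per cell cannot be told apart.

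The start regions of Ccnb1 and Cdk1 are shown because the products form 1 complex while their transcript differences, both inside 2-fold, were unequal. Capitals mark, on either strand, CCAAT, which nuclear factor Y binds, and TTTCGCGC or TTTGGCGC, forms of the E2F site. They also mark TTTGAA or TTCGAA, forms of the cell cycle homology region (CHR) through which the MuvB complex acts on G2/M genes.
Ccnb1 start, chr13:100786437-100786736, minus strand: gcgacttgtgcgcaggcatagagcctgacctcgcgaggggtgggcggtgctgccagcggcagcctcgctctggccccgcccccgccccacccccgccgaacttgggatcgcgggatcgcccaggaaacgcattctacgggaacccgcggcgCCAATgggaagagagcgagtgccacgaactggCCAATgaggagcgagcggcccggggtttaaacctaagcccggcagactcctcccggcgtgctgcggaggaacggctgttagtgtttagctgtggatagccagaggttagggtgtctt
Cdk1 start, chr10:69352863-69353162, minus strand: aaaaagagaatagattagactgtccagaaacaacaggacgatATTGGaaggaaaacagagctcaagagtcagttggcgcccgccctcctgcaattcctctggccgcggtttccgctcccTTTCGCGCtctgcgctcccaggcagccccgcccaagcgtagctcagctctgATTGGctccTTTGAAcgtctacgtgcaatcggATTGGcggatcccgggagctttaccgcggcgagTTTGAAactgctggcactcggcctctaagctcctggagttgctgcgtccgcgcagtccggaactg
The Ccnb1 window holds CCAAT at -99 and -67. The Cdk1 window holds CCAAT on the reverse strand at -208, -80 and -48, the CHR letters at -71 and -15, and an E2F form at -131. Over all 32851 windows CCAAT occurs in 37.4%, the CHR letters in 19.2% and these E2F forms in 0.813%. As for Ccnd3, the marked letters are not measured binding sites. Their relation to the unequal differences of Ccnb1 and Cdk1 was not tested. The CHR letters as spelled here are not in the Ccnb1 window, which says nothing about the factor. Only TTTGAA and TTCGAA were searched, so the Ccnb1 window is not shown to lack a CHR of another spelling. RefSeq windows were matched for 6 of the 10 genes (Ccnd3, Ccne1, Ccnb1, Cdk1, Cdk4 and Cdk6); Ccnd1, Ccnd2, Ccne2 and Ccna2 were not matched.

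**Figure D3:**
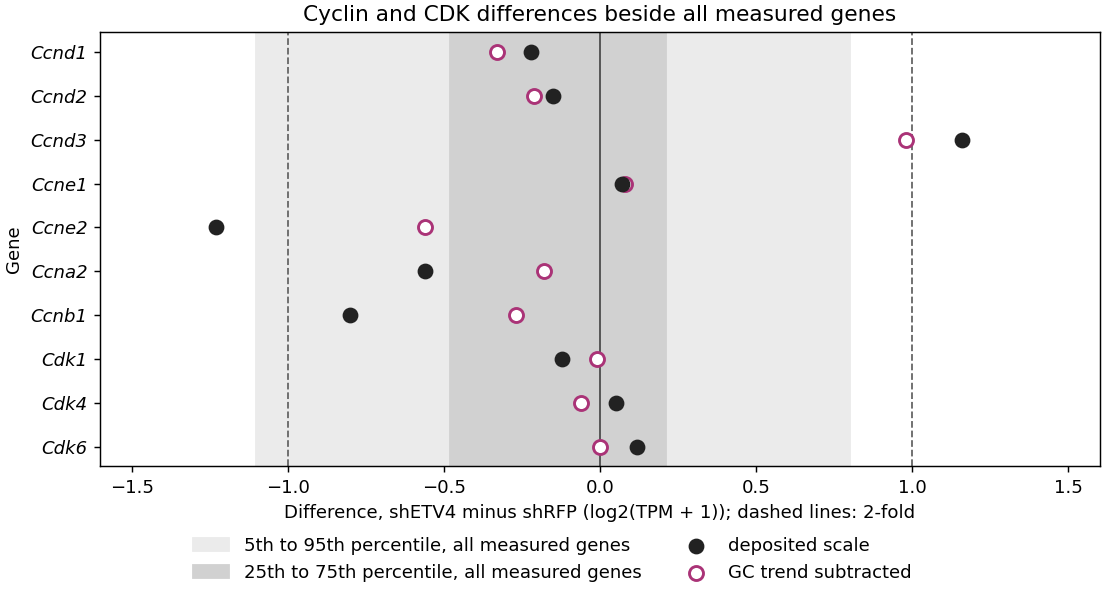
Difference of each gene on the log2(TPM + 1) scale, shETV4 minus shRFP, as filled points on the deposited scale and open points after GC adjustment, over the range of all measured genes (dark band from -0.48 to 0.21, the 25th to 75th percentile; light band from -1.10 to 0.80, the 5th to 95th). Ccnd3 lies above the light band on both scales and Ccne2 lies below it on the deposited scale alone.

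The differences of the 10 genes rose with transcript GC content, as did those of all measured genes. Over the 10 genes, which share both libraries, the rank correlation of difference with GC content was 0.82, given as a description. Over 12947 measured genes it was 0.52. Ccne2, Ccnb1 and Ccna2 had the lowest GC contents, 42.3%, 44.2% and 46.1%, and the lowest differences, -1.23, -0.80 and -0.56. Ccnd3 had the highest GC content, 58.6%, and the highest difference, but the running median there was 0.18, which leaves 0.98 at percentile 95.8 of the GC-adjusted differences. Ccnd1 and Cdk6, with nearly the same GC contents of 56.7% and 56.8%, were at -0.22 and 0.12. After adjustment 8 of the 10 genes lay within 0.35 of 0 on the log2 scale, all but Ccnd3 and Ccne2, and the median was -0.12. The part of base composition in these differences was not tested.

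**Figure D4:**
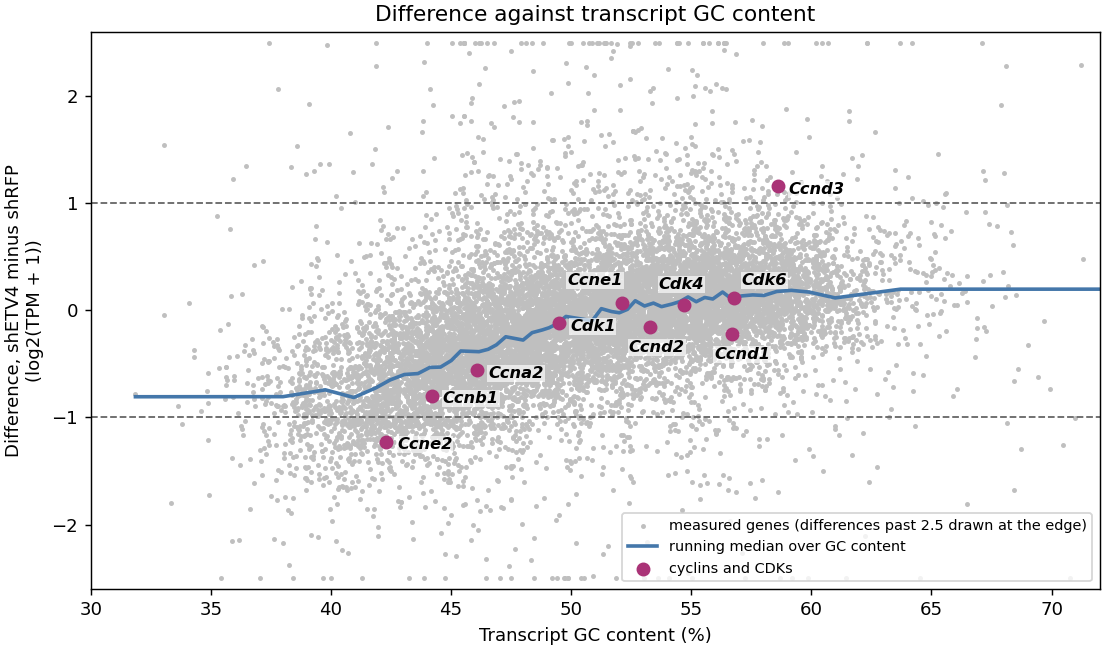
Difference (log2(TPM + 1), shETV4 minus shRFP) against transcript GC content in percent for all measured genes in grey, with the running median in blue and the 10 cyclin and CDK genes labelled. Ccne2, Ccnb1 and Ccna2 lie at low GC content where the median is below 0, and Ccnd3 lies above the 2-fold line where the median is 0.18.

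Pseudogenes with near-identical sequence held little of the signal, none of them above 0.44 TPM in either library. Ccnb1 has 5 annotated pseudogenes that match its transcripts over at least 200 bases at 90% identity or more, and their values summed to 0.18 TPM in the control and 0.28 TPM in the knockdown. Ccnd3-ps, a processed pseudogene of Ccnd3, was listed at 0 and 0.18 TPM. The larger overlaps were with neighbouring genes that share exonic bases. For Ccna2 that neighbour was Exosc9, an exosome gene, at 35.0 and 18.7 TPM, sharing 12.5% of the exonic bases of Ccna2. For Ccnd3 it was Bysl, at 32.8 and 28.0 TPM, with 4.11% shared, so the neighbour was slightly lower where Ccnd3 was higher. Ccnd1 shared 23.4% with LTO1 (9.23 and 17.8 TPM) and Cdk4 19.7% with Tspan31 (58.6 and 77.0 TPM). Gm43126, an antisense gene that shares bases with Ccnd2, was at 7.83 TPM in the control and listed at 0 in the knockdown. Ccne1, Ccnb1 and Cdk1 shared no exonic base with another gene. The part of these overlaps in the differences was not tested.

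The remaining cyclins and CDKs, most of them transcriptional or atypical, gave 1 call on the lower side and 1 on the higher side. Of 19 other cyclin genes 16 were measured, 1 was called lower, none higher, and 14 lay below 0, with a median of -0.46 (0.01 after GC adjustment). Over all measured genes 7.06% were called lower, 3.39% higher and 58.3% lay below 0, with a median of -0.10. The called gene was Ccnc, the cyclin of the Mediator kinases, at 8.55 and 3.23 TPM and -0.40 after GC adjustment. Ccni, among the most abundant of these, was at 81.4 and 77.7 TPM. Of 16 other CDK genes 15 were measured, with a median of -0.29 (0.15 after GC adjustment), and 1 was called higher: Cdk8, the Mediator kinase, at 153 and 589 TPM, a gene-level value that does not show where in the locus the reads lie. Cdk9, the kinase of the elongation factor P-TEFb, was level at 116 and 119 TPM.

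Among the proteins that restrain CDKs, 6 of 7 transcripts were above 0, beside 41.6% of all measured genes. The median was 0.34 (0.23 after GC adjustment) and 1 was called higher, beside 3.39% of all measured genes: Cdkn1a, which encodes p21, at 2.25 and 11.9 TPM. Its difference after GC adjustment, 1.91, was nearly the same as before it. Cdkn2a, whose record joins the overlapping p16 and ARF transcripts, was the most abundant by far, at 1236 TPM in the control and 1602 TPM in the knockdown. Cdkn2b, the p15 gene and another inhibitor of CDK4 and CDK6, was at 97.8 and 124 TPM.

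Other genes that act on cyclin-CDK complexes gave 1 call, on the lower side. None of 9 kinases, phosphatases and subunits that tune CDK activity was called, with a median of -0.04; Cks1b, a small CDK-binding subunit, was at 463 and 451 TPM and Cks2 at 180 and 134 TPM. Of 25 genes of cyclin degradation 24 were measured, with a median of -0.32 (-0.08 after GC adjustment), and Fbxo5 alone was called lower. Over all measured genes 7.06% were called lower and 3.39% higher, with a median of -0.10. The 1 call among 24 is therefore not a result about the list. Fbxo5 encodes EMI1, an inhibitor of the anaphase-promoting complex that protects cyclins A and B from destruction, and was at 23.5 and 8.07 TPM (-0.95 after GC adjustment). Ube2c and Ube2s encode ubiquitin-conjugating enzymes of that complex. Ube2c was at 345 and 238 TPM, and Ube2s had 310 and 287 TPM.

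Transcription factors that act on cyclin genes gave 1 call. None of 13 pocket protein and E2F genes was called, with a median of -0.34 (0.14 after GC adjustment); Tfdp1, a dimer partner of E2F factors, was at 234 and 200 TPM, E2f4 at 98.5 and 74.1 TPM and E2f5 at 9.71 and 4.76 TPM. Of 10 genes of the MuvB complex and G2/M transcription 9 lay below 0, beside 58.3% of all measured genes, with a median of -0.30 (-0.27 after GC adjustment). Lin9, a MuvB subunit, was the 1 called lower (7.06% of all measured genes were), at 12.7 and 5.53 TPM, or -0.32 after GC adjustment. Rbbp4, a MuvB subunit that many other complexes share, was at 330 and 289 TPM, and Nfyc, a subunit of nuclear factor Y, at 72.8 and 64.6 TPM.

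**Figure D5:**
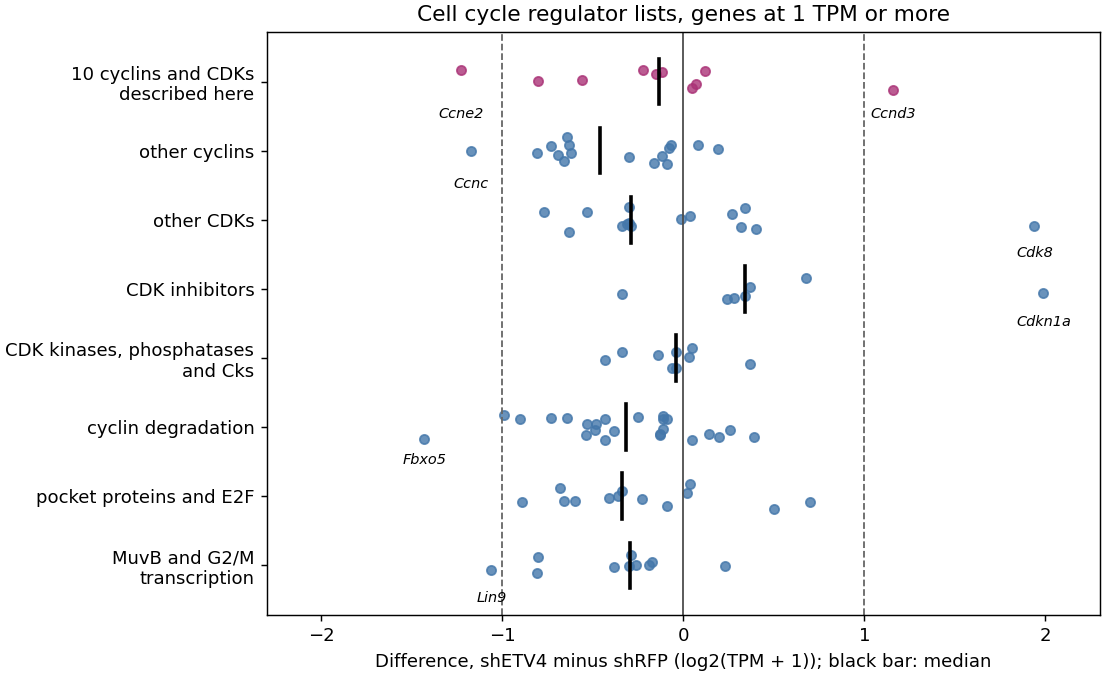
Difference (log2(TPM + 1), shETV4 minus shRFP) of every measured gene in the 10 described here and in 7 lists of related regulators, 1 point per gene, with the list median as a black bar and dashed lines at 2-fold; vertical scatter is for legibility. The called genes are named: Ccne2, Ccnc, Fbxo5 and Lin9 on the lower side and Ccnd3, Cdk8 and Cdkn1a on the higher side.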

How the data were processed

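RNA of LPC-HRas cells was sequenced in 2 libraries, 1 per hairpin, after TruSeq library preparation, per the labels' protocols. The authors deposited 1 TPM value per gene and library; the unit was read from the values, whose totals are 999999.77 (shRFP) and 999870.3 (shETV4), since the headers name none. The submitters' processing notes list HISAT2, RSEM and GRCm38.p4 but give no role or version. For the annotation, the strand setting and any filters: not given in the sources used here.

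Of 55640 records, 153 lacked a gene symbol and held 1.13% and 2.67% of the TPM; they were left out. Differences used a pseudocount of 1 TPM, a minimum of 1 TPM in at least 1 library and a call at 2-fold. The main alternative for base composition took off a running median fitted in 50 bins of transcript GC content (median over a gene's transcripts, GENCODE M21 on GRCm38, which covered 99.4% of named records). Coordinates, exon overlap and near-identical transcripts (BLAST+ 2.17.0, 200 bases at 90% identity) came from the same release, and start windows from RefSeq (GRCm38.p6). Other alternatives were a pseudocount of 0.1 or 5, no filter or a minimum of 5 TPM, scaling by the median ratio or by a trimmed mean (30% of ratios and 5% of levels off each end), a call at 1.5-fold or 3-fold, protein-coding genes alone, and summed records. Python 3.11.15, numpy 2.4.6, pandas 2.3.3 and matplotlib 3.10.9 were used. The procedure was also tested on simulated data with a smaller spread than these differences have, which gives no error rate for them.

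The 10 genes and the lists were chosen with earlier results of these data known. Of each list of cell cycle regulators the text names every called gene, the 2 with the highest summed TPM and the 1 with the largest absolute difference. Cdk2 and Ccnb2 stand beside their partners, overlapping neighbours and pseudogenes beside the gene they share bases with, and the marker genes named and the Mediator genes were chosen after their values were seen. With 1 library per group no test and no likeness of pattern between genes could be computed.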

Additional observations from a re-analysis of the deposited data

How the results depend on the processing

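Of the 10 genes, 1 was called higher and 1 lower. With a pseudocount of 5 none was called lower (0), because Ccne2 came to -0.82. At 1.5-fold 2 were called lower, Ccne2 and Ccnb1, and at 3-fold 0 were called higher and 0 lower. With GC adjustment 0 were called higher and 0 lower, Ccnd3 being at 0.98 and Ccne2 at -0.56. A pseudocount of 0.1, the median ratio set to 1 and the trimmed mean of log ratios set to 0 left both counts at 1. No filter, a minimum of 5 TPM, protein-coding genes alone and summing all records of a symbol could not change them. Each of the 10 genes is protein-coding, has 1 record and reached 5 TPM in at least 1 library. The shares of the 3 D-type cyclins and their quotient to Cdk4 and Cdk6 kept their direction with the GC trend divided out, at 35.9%, 15.5% and 48.7% for Ccnd1, Ccnd2 and Ccnd3 with shETV4 and 1.15 for the quotient. No paired analysis was possible because each group is 1 library. For the same reason no library could be left out, and since TPM keeps no depth, the counting error of Ccne2 at 4.32 TPM is unknown.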

Other observations

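Cdk8 and its cyclin partner Ccnc differed in opposite directions between the libraries. Cdk8 (chromosome 5, 146231230 to 146302874, plus strand of GRCm38) was at 153 TPM in the control and 589 TPM in the knockdown, 3.85-fold higher and 2.32 on the log2 scale after GC adjustment, so that it stood above Cdk4 (494 TPM) in the shETV4 library. The file gives a single TPM for the gene, which does not show where in the locus the reads lie, so it may not stand for full-length Cdk8 mRNA. Among 9581 protein-coding genes that reached 5 TPM its difference ranked 28 from the highest, and 16 after GC adjustment. Of the 7 genes of the Mediator kinase module, a set chosen after the value of Cdk8 was seen, 6 were measured. The other 5 measured genes were all below 0, as were 58.3% of all measured genes. Ccnc was at 8.55 and 3.23 TPM, the CDK8 paralog gene Cdk19 at 8.38 and 4.49 TPM and the module scaffold gene Med13 at 9.27 and 3.85 TPM. Med12, which activates the kinase, and Med13l were nearer level, at 53.1 and 45.8 TPM and at 14.5 and 12.1 TPM. After GC adjustment Ccnc was at -0.40, Cdk19 at -0.39, Med13 at -0.35, Med13l at -0.23 and Med12 at -0.21. No exonic base of Cdk8 lies in an exon of another gene. The pseudogene record inside its locus, Gm15739, was at 0.3 and 0 TPM, and a pseudogene matching its transcripts at 97.2% identity, Gm7107, was at 0.33 and 0 TPM.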
